A study of Arabidopsis thaliana with 9 samples.

Results

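The genes described here are 9 heat-inducible loci of Arabidopsis thaliana, taken from the deposited table by their locus identifiers: the heat shock factor gene HSFA2 (AT2G26150), the large chaperone genes HSP101 (AT1G74310) and HSP90.1 (AT5G52640), and 6 small heat shock protein genes, HSP17.4 (AT3G46230), HSP18.2 (AT5G59720), HSP17.6II (AT5G12020), HSP21 (AT4G27670), HSP22 (AT4G10250) and HSP23.6 (AT4G25200). The table lists 25199 loci, and all 9 genes were in it. Of them, 7 reached at least 1 FPKM in at least 3 libraries and were tested among 19740 loci. HSP21 and HSP22 were below that level. FPKM is the number of sequenced fragments per transcript length and per mapped fragment of its library.

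RNA was taken from whole seedlings, 7 days old, grown on plates at 22 °C in 16 h light and 8 h dark and given no treatment, so every level below is a level without an applied heat stress. All plants were of the Enkheim (En2) background. The groups, with 3 biological replicates each, were En2 wild type, plants that over-express RAV1, a transcription factor with an AP2 and a B3 DNA-binding domain, and bes1-D, which carries a gain-of-function allele of the transcription factor gene BES1, through which brassinosteroid hormones act. The sources used here do not give the promoter that drives RAV1 or say whether its replicates come from 1 line or several.

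In plants, proteins that unfold on warming release heat shock factors of the A1 class from chaperones. The freed factors bind heat shock elements, inverted repeats of the bases GAA, and switch on chaperone genes together with HSFA2, a further factor that prolongs their expression. HSP101 pulls proteins out of aggregates, cytosolic HSP90 folds and holds client proteins, and small heat shock proteins bind unfolding proteins so that they do not aggregate. Transcripts of these genes are known to be scarce in unstressed leaves and to accumulate steeply after heat, and some small heat shock proteins also accumulate in maturing seeds.

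A heat shock element with 3 units, GAANNTTCNNGAA on either strand, lay within the 500 bases before the annotated start codon in 5 of the 9 genes and in 1.2% of 27443 Arabidopsis genes searched the same way. How much of this window is 5′ leader depends on the gene: for HSP101 all of it lies inside the annotated gene, and for HSP90.1, whose annotated gene begins at the start codon, none does. In the 250 bases before the annotated gene start, 2 of the 9 genes held the element, against 0.39% of genes. The 3-unit elements of the 5 genes that held one are shown because heat shock factors bind such elements. Each line runs 5′ to 3′ on the strand of its gene (RefSeq TAIR10.1), with the element in capitals. The 2-unit elements of HSP101 and HSP17.6II, neither of which had a 3-unit match in this window, follow them. By the annotation, the elements of HSP90.1, HSFA2 and HSP17.4 lie upstream of the gene. For the proximal one of HSP17.4, the lower-case bases printed after it cross the gene start. Those of HSP18.2, HSP22, HSP101 and HSP17.6II lie in the 5′ part of the gene before the start codon.
HSP90.1, chr5:21352254-21352283, plus strand, element start 295 bases before the start codon: aacgaaaaGAACTTTCTGGAAttcgtttgc
HSFA2, chr2:11135528-11135557, plus strand, 320 bases before: ttagtaacGAAGTTTCTGGAAcattgtctt
HSP18.2, chr5:24062388-24062417, plus strand, 236 bases before: caacaaacGAAACTTCCTGAAatgccaaga
HSP17.4, distal of its pair, chr3:16984945-16984974, minus strand, 233 bases before: tcaacataGAAGCTTCTTGAAgccacctga
HSP17.4, proximal, chr3:16984864-16984893, minus strand, 152 bases before: agaaacctGAAATTTCAAGAAacttgcaga
HSP22, element on the opposite strand of the gene, chr4:6370379-6370408, plus strand, 150 bases before: aaagatatTTCAAGAAACTTCttcattctt
HSP101, 2 units, chr1:27940322-27940351, minus strand, 478 bases before: ataaaataagcGAAAATTCcacgtgacatc
HSP17.6II, 2 units, chr5:3883035-3883064, minus strand, 177 bases before: gaccaagacgtTTCTCGAAcaatacggaag

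Looser motifs separated these genes less from the rest of the genome. A 2-unit element (GAANNTTC or TTCNNGAA, which also lie inside every 3-unit match) was present in 9 of 9 genes and in 33.9% of all windows. The motif bound by the AP2 domain of RAV1, CAACA, occurred in 9 of 9 genes and in 73.7% of windows. The motif of its B3 domain, CACCTG, occurred in 1 of 9, HSP17.4, where it overlaps the printed 30 bases of the distal element, and in 6.02% of windows. The E-box CANNTG, to which BES1 binds with partner proteins and which includes CACCTG, was found in 8 of 9 genes and in 77.1% of windows. The brassinosteroid response elements CGTGTG and CGTGCG had 0 matches in the 9 windows and matched 9.94% and 2.85% of all windows. These matches describe letters in the reference sequence of another accession than En2.

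The libraries were first set against their labels. RAV1 averaged 84.1 ± 13.9 FPKM (SD, n = 3) in wild type, 1082 ± 335 in the over-expression group and 48.5 ± 13.4 in bes1-D, and BES1 averaged 108, 62.2 and 154 FPKM. Library sums ran from 890880 to 971271 FPKM, and the absolute depth is unknown because the files hold no counts. Tissue markers differed from wild type in both mutant groups, in bes1-D in the summed leaf and root genes. The summed FPKM of 16 seed maturation genes was 18.17 to 35.95 in wild type, 22.7 to 36.1 in bes1-D, and 462, 139 and 1701 in RAV1 over-expression replicates 1 to 3. Of the seed regulators, LEC1, LEC2 and FUS3 were at 0.33 FPKM or less in every library, and ABI3 was at 0.12 to 0.19 in wild type, 0.2 to 0.49 in bes1-D and 0.9, 0.72 and 2.77 with RAV1 over-expressed. The summed level of 3 leaf genes was 16376 to 22292 FPKM with RAV1 over-expressed against 30355 to 31833 in wild type and 33353 to 37383 in bes1-D. Of these 3, 2 were called lower with RAV1 over-expressed and 0 were called in bes1-D. The summed level of 6 root genes was 61.9 to 64.7 FPKM in wild type, 62.2 to 68.5 with RAV1 over-expressed (3 genes called higher and 2 lower) and 33.5 to 42.8 in bes1-D (3 called lower and 0 higher). Of all loci, 15% were called higher and 8.01% lower with RAV1 over-expressed, and 2.19% and 5.77% in bes1-D. Of 3 flower genes, PI was below the level for testing (means of 0.400, 0.703 and 0.307 FPKM in wild type, RAV1 over-expression and bes1-D). AP3 and AG were called higher with RAV1 over-expressed, at 4.65 and 7.80 FPKM against 1.16 and 3.41 in wild type. In bes1-D 0 of these 2 were called. The part of these differences in the heat shock results was not tested, and in whole seedlings fewer cells of a type cannot be told apart from less RNA per cell.

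In wild type the 9 genes covered a wide range of levels per transcript length. HSP90.1 was the highest at 21.3 ± 5.25 FPKM (SD, n = 3), followed by HSP101 at 8.72 ± 2.18 and HSP17.6II at 4.79 ± 1.75. HSP18.2 (3.26 ± 1.10), HSP23.6 (3.15 ± 1.12), HSP17.4 (2.00 ± 1.03) and HSFA2 (1.80 ± 0.299) came next, and HSP22 (0.690 ± 0.716) and HSP21 (0.447 ± 0.160) were the lowest. The replicates of HSP90.1, HSP101 and HSP17.6II did not overlap with one another, and those of HSFA2 lay above those of HSP22. The neighbours from HSP17.6II down to HSFA2 overlapped in their replicates, as did HSP22 and HSP21. The other cytosolic HSP90 gene HSP90.2 (AT5G56030), expressed without stress, was at 232 ± 6.44 FPKM in the same libraries.

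**Figure D1:**
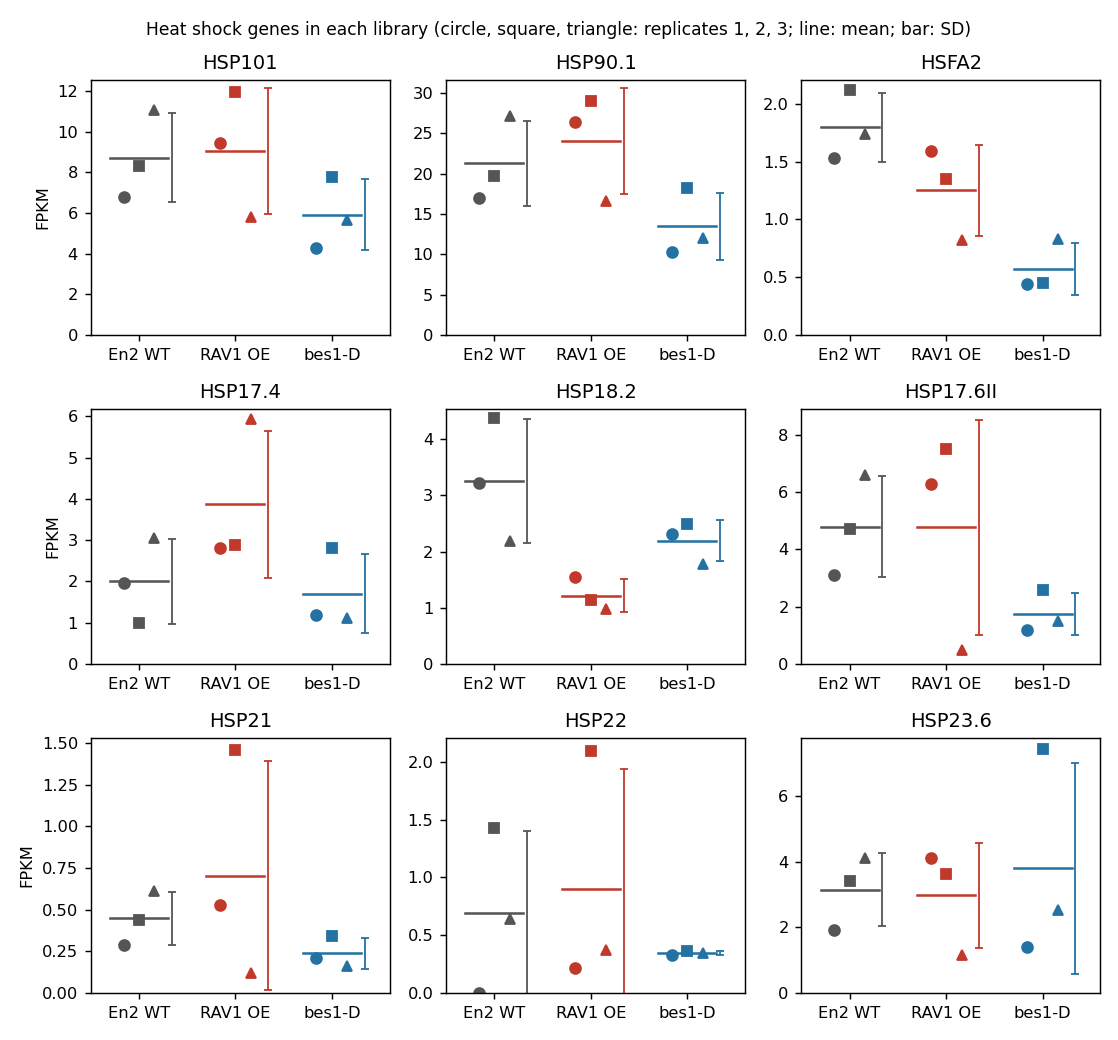
FPKM of the 9 heat shock genes in each library, one panel per gene with its own linear axis; the symbols are replicates 1 to 3, the line is the group mean and the bar 1 SD (bars that would pass below 0 end at the axis). The RAV1 over-expression libraries lie below all wild-type libraries for HSP18.2, the bes1-D libraries lie below all wild-type libraries for HSFA2 and HSP17.6II, and the other panels overlap between each mutant group and wild type.

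Against wild type, bes1-D had less HSFA2 transcript. HSFA2 was at 1.53, 2.12 and 1.74 FPKM in wild-type replicates 1 to 3 and at 0.44, 0.45 and 0.83 in bes1-D, while RAV1 over-expression gave 1.59, 1.35 and 0.82. The highest bes1-D library lay below the lowest wild-type library. The change was -0.83 on the log2(FPKM + 1) scale (SE 0.19, 95% interval -1.26 to -0.41, adjusted p = 0.0290, limma over all loci), and this scale understates the change of so low a gene. The call was lost when any 1 wild-type library was left out (adjusted p = 0.0576, 0.104 and 0.0760 without replicates 1, 2 and 3) and without bes1-D replicate 1 or 2 (0.0768 and 0.0909), with the change between -0.75 and -0.90 in those fits. The scalings between libraries left it at an adjusted p of 0.0346 and 0.0375.

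The same comparison called 7.96% of all loci, 2.19% as higher and 5.77% as lower, and HSFA2 was the 1 gene called among the 7 tested. The estimates were negative for 6 of the 7, with a median of -0.50 against -0.06 over all loci tested. HSP90.1, the heat-inducible cytosolic HSP90, was at 16.98, 19.69 and 27.12 FPKM in wild type and at 10.25, 18.18 and 12.05 in bes1-D. Here bes1-D replicate 2 lay inside the wild-type range and the other 2 libraries below it. The estimate was -0.63 (95% interval -1.20 to -0.06, adjusted p = 0.171). HSP101 had the same pattern, with 6.79, 8.30 and 11.08 FPKM in wild type and 4.30, 7.76 and 5.68 in bes1-D, and an estimate of -0.50 (adjusted p = 0.293).

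Among the small heat shock proteins, HSP17.6II of the cytosolic class II was lower in every bes1-D library. It was at 3.09, 4.71 and 6.58 FPKM in wild type and at 1.2, 2.58 and 1.49 in bes1-D. The groups did not overlap, which held for 2 of the 7 genes (the other is HSFA2) and for 29.5% of all loci (19.8% with bes1-D lower). The estimate of -1.06 had an SE of 0.59 and did not pass the test (adjusted p = 0.323). That spread is set by RAV1 over-expression replicate 3, where HSP17.6II was at 0.50 FPKM beside 6.28 and 7.51 in replicates 1 and 2. Without this library the estimate stayed at -1.06 and its adjusted p was 0.0293, and with the 3 wild-type and 3 bes1-D libraries fitted alone it was 0.0465. It passed in only these 2 of 16 alternative fits, and the adjusted p ran up to 0.564. The remaining small heat shock genes overlapped between bes1-D and wild type: HSP18.2 with an estimate of -0.39, HSP17.4 with -0.15 and HSP23.6, which is imported into mitochondria, with 0.04 (adjusted p = 0.298, 0.844 and 0.972).

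With RAV1 over-expressed, HSP18.2 fell. This cytosolic class I gene was at 3.22, 4.37 and 2.18 FPKM in wild type, at 1.55, 1.13 and 0.97 with RAV1 over-expressed and at 2.32, 2.49 and 1.78 in bes1-D. All 3 RAV1 over-expression libraries lay below all others. The change from wild type was -0.92 (SE 0.21, 95% interval -1.38 to -0.46, adjusted p = 0.0112, limma), and it passed in 16 of 16 alternative fits with adjusted p between 0.00771 and 0.0459. This comparison called 23% of all loci, 15% as higher and 8.01% as lower, and HSP18.2 was the 1 gene called of 7. It was also the 1 gene of 7 whose groups did not overlap, a state shared by 46.8% of all loci, with RAV1 over-expression the lower group in 15.6%.

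The other 6 tested genes did not pass between RAV1 over-expression and wild type. HSP17.4, also of class I and known to accumulate in maturing seeds as well, was at 1.96, 1.00 and 3.05 FPKM in wild type and at 2.80, 2.89 and 5.93 with RAV1 over-expressed. Replicate 3 of the over-expression group was the highest of all 9 libraries, and replicates 1 and 2 lay inside the wild-type range. The estimate was 0.70 (95% interval -0.05 to 1.44, adjusted p = 0.157). That replicate also had the highest sum of seed maturation genes; the part of this in the HSP17.4 level was not tested.

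In the same library HSP17.6II was at its lowest, 0.50 FPKM. Its neighbour on chromosome 5, HSP17.6A (AT5G12030), the other class II gene, was at 13.95 FPKM there, its highest level of all. In RAV1 over-expression replicates 1 and 2, HSP17.6II was at 6.28 and 7.51 FPKM and HSP17.6A at 11.11 and 12.94. None of the 100-base windows of the HSP17.6II transcript occurs elsewhere in the reference genome as an exact match. That genome is of another accession than En2, and the placing of reads with mismatches was not tested. The HSP17.6II estimate against wild type was -0.31 (95% interval -1.64 to 1.03, adjusted p = 0.736), and it turned to 0.49 without replicate 3.

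HSP101 and HSP90.1 had estimates of 0.02 and 0.16 with RAV1 over-expressed (adjusted p = 0.961 and 0.691). The intervals ran from -0.57 to 0.61 for HSP101 and from -0.42 to 0.73 for HSP90.1. HSP101 was at 9.44, 11.94 and 5.78 FPKM and HSP90.1 at 26.38, 29.04 and 16.60 in replicates 1 to 3. Replicates 1 and 2 were at or above the middle of the wild-type range and replicate 3 below its lowest library in both genes. HSFA2 had an estimate of -0.32 (adjusted p = 0.250) and HSP23.6 one of -0.12 (adjusted p = 0.878). The median over the 7 genes was -0.12, against 0.09 over all loci.

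Set directly against bes1-D, RAV1 over-expression plants had more HSP90.1 transcript, with means of 24.0 ± 6.55 and 13.5 ± 4.16 FPKM (SD, n = 3). The groups overlapped, since RAV1 over-expression replicate 3 (16.60) lay below bes1-D replicate 2 (18.18). The difference was 0.79 (SE 0.26, 95% interval 0.21 to 1.36, adjusted p = 0.0360, limma), in a comparison that called 38.5% of all loci, 28% as higher and 10.6% as lower. It passed in 8 of 16 alternative fits. It was lost under both scalings between libraries, with a difference of 0.62 and adjusted p of 0.106 for trimmed means and of 0.101 for quantile normalization. It was also lost without wild-type replicate 2 (adjusted p = 0.0516), RAV1 over-expression replicate 1 or 2 (0.109 and 0.1005) or bes1-D replicate 1 or 3 (0.115 and 0.0941).

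HSP90.1 was the 1 gene called of 7 in this direct comparison, and the median of the 7 was 0.52 against 0.19 over all loci. HSP18.2 was lower with RAV1 over-expressed than in bes1-D in every library, with a difference of -0.53 (adjusted p = 0.0665), and was the 1 gene of 7 whose groups did not overlap, against 51.3% of loci (13% in that direction). It passed under both scalings (adjusted p = 0.0435 and 0.0298). HSFA2 differed by 0.51 (adjusted p = 0.0583), HSP17.4 by 0.85 (0.0693), HSP101 by 0.52 (0.141), HSP17.6II by 0.75 (0.331) and HSP23.6 by -0.16 (0.800). Without RAV1 over-expression replicate 3 the differences of HSP101, HSFA2 and HSP17.6II were 0.78, 0.66 and 1.55 and passed (adjusted p = 0.0356, 0.0340 and 0.00378). HSP101 and HSP17.6II passed in 1 of 16 alternative fits each, and HSFA2 in 5 of 15. Of all loci, 38.5% passed in the main fit of this comparison. The comparison with bes1-D and both comparisons with wild type share libraries and are not independent of one another.

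**Figure D2:**
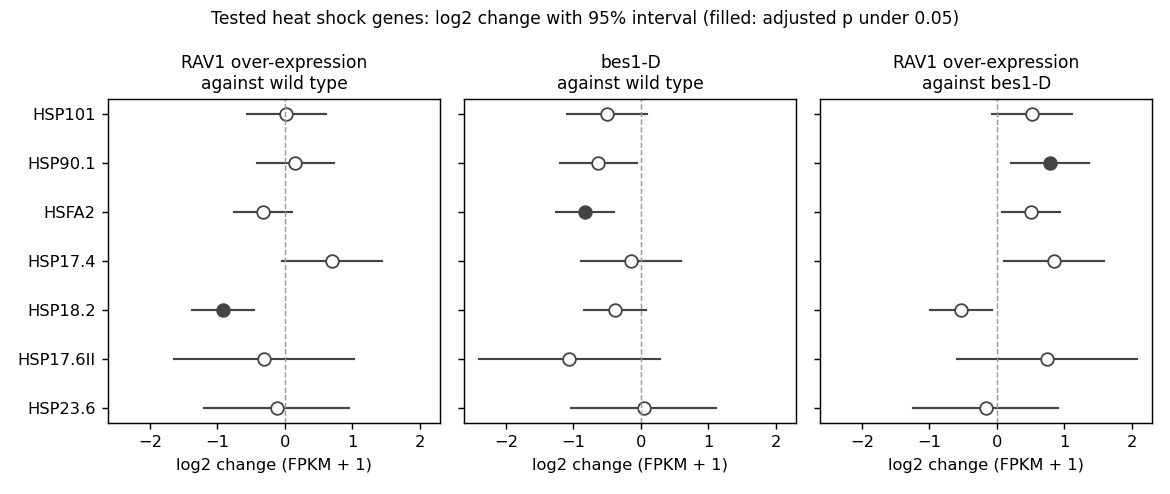
Log2 change of FPKM + 1 with its 95% interval for the 7 tested genes in the 3 comparisons, from limma fitted over 19740 loci; filled points have an adjusted p under 0.05. One gene is filled in each panel, HSP18.2, HSFA2 and HSP90.1 in turn, and HSP17.6II has the widest intervals.

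The small heat shock genes of the chloroplast and the endoplasmic reticulum, HSP21 and HSP22, stayed at the bottom of the measured range. HSP21, which protects chloroplast proteins, was at 0.29, 0.44 and 0.61 FPKM in wild type, 0.53, 1.46 and 0.12 with RAV1 over-expressed and 0.21, 0.34 and 0.16 in bes1-D. HSP22, a small heat shock protein of the endoplasmic reticulum, was listed at 0 in wild-type replicate 1 and at 1.43 and 0.64 in replicates 2 and 3. With RAV1 over-expressed it was at 0.22, 2.1 and 0.37 FPKM, and in bes1-D at 0.33, 0.36 and 0.35. All groups of both genes overlapped. Tested without the filter on low values, neither passed in any comparison, with adjusted p between 0.260 and 0.866.

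Replicates of one group differed from each other in many of these genes at once. Wild-type replicate 3 held the highest wild-type level in 6 of the 9 genes, RAV1 over-expression replicate 3 the lowest level of its group in 7, and bes1-D replicate 2 the highest of its group in 8. The summed FPKM of the 9 genes was 35.8, 45.5 and 57.1 in wild type, 52.9, 61.0 and 32.2 with RAV1 over-expressed, and 21.6, 42.4 and 26.0 in bes1-D. The highest bes1-D library lay above the lowest wild-type library, and the lowest RAV1 over-expression library lay below both.

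After the group means were subtracted, the levels of HSP101 and HSP90.1 moved together over the 9 libraries with r = 0.98 on the log2(FPKM + 1) scale. HSP23.6 followed HSP90.1 with r = 0.94 and HSP17.6II followed HSP101 with r = 0.89. Over the 6 wild-type and bes1-D libraries alone, these 3 values were 0.99, 0.93 and 0.97, so they do not rest on RAV1 over-expression replicate 3. HSP18.2 was apart from the rest, with r between -0.52 and 0.27 against each other member, and HSFA2 and HSP17.4 ran in opposite directions (r = -0.73). HSFA2 had r = 0.65 or less with every chaperone gene of the set. These values are descriptions of 36 pairs measured in the same libraries, so that depth and the handling of each sample are shared by both genes of a pair.

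Some heat shock genes outside the set varied between replicates with HSP101 and others did not. Of 63 tested genes of the 5 heat-related lists, 12 had r of at least 0.8 with it and 17 had r below 0, from -0.58 to 0.98. The other small heat shock genes had the highest median, 0.79, with 5 of 13 at 0.8 or more, and the HSP90 and HSP100 genes the lowest, 0.12, with 1 of 9. Examples chosen for their high r follow. The repressor-type factor HSFB2A (AT5G62020) had r = 0.98 with HSP101 over the 9 libraries, the chloroplast HSP90.5 (AT2G04030) 0.98, the cytosolic HSP70 gene AT3G12580 0.95, the HSP20-like chaperone gene AT1G54050 0.95 and the transcriptional coactivator MBF1C (AT3G24500) 0.94. Of 19739 other loci tested, 458 or 2.32% had r of at least 0.8 with HSP101. Handling markers were among the genes that varied with it. The stress-inducible zinc finger gene ZAT12 had r = 0.80 and the touch gene TCH3 0.86. ZAT12 was at 8.74, 27.32 and 23.28 FPKM in wild type, 21.79, 20.73 and 11.42 with RAV1 over-expressed and 8.12, 20.39 and 9.96 in bes1-D. All 8 tested seed maturation genes varied inversely with HSP101 over the 9 libraries (r from -0.90 for CRC to -0.53 for OLEO2). Over the 6 wild-type and bes1-D libraries their r ran from -0.88 for CRC to 0.79 for PAP85, so the sign was not shared there. With HSP17.4 the same 8 genes had r from 0.15 to 0.64 over the 9 libraries and from -0.89 to 0.64 over the 6. HSFA2 varied with the touch genes TCH4 (r = 0.95) and TCH2 (0.87). HSP17.4 varied with the evening clock gene LUX (r = 0.91) and HSP18.2 with the morning clock gene LHY (r = 0.80). Each was the highest of 9 clock genes. The 9 ran from r = -0.46 to 0.91 with HSP17.4 and from -0.24 to 0.80 with HSP18.2. The summed level of 5 touch and handling genes was 323 to 561 FPKM in wild type, 321 to 523 with RAV1 over-expressed and 486 to 726 in bes1-D, and the part of handling, seed or clock genes in the heat shock results was not tested.

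**Figure D3:**
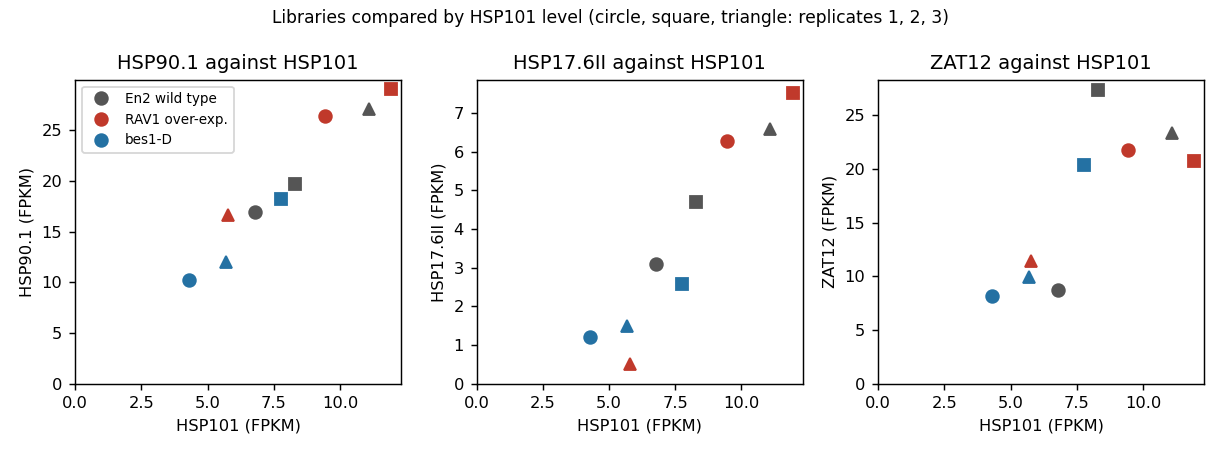
HSP90.1, HSP17.6II and the zinc finger gene ZAT12 (y axes, FPKM) against HSP101 (x axis, FPKM) in each of the 9 libraries; colour gives the group and symbol the replicate. HSP90.1 climbs with HSP101 through all 3 groups, and HSP17.6II lies lowest in RAV1 over-expression replicate 3 at 0.50 FPKM.

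The loci closest to the mean profile of the 7 tested genes over all 9 libraries, taken as standardised levels, were led by another chaperone gene. AT1G54050, annotated as an HSP20-like chaperone, had r = 0.97 with that profile and was at 6.94, 12.67 and 12.63 FPKM in wild type, 12.96, 16.20 and 4.30 with RAV1 over-expressed and 3.09, 8.63 and 4.53 in bes1-D. The histone gene HTB9 (r = 0.97), AT5G56460 (0.96), the cyclin gene CYCA2;4 (0.94), AT4G36580 (0.94), the RNA helicase gene RH20 (0.94), AT3G09890 (0.93), AT1G14200 (0.93), the NAC factor gene ATAF2 (0.92) and AT3G07750 (0.92) followed. Of the members, HSP101 had r = 0.96, HSP90.1 0.94 and HSP17.6II 0.91 with the profile they helped to set, HSFA2 0.74 and HSP23.6 0.69, while HSP17.4 and HSP18.2 had 0.21 and 0.15.

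The rest of the chaperone system was counted by list in the same libraries. Most HSP90 genes other than HSP90.1 are expressed without heat. In bes1-D, 4 of 9 other HSP90 and HSP100 family genes fell and 0 rose, and the median change was -0.32, beside 5.77% of all loci called lower and a median of -0.06. HSP90.2 went from 232 to 161 FPKM (-0.52, SE 0.09, adjusted p = 0.00755), HSP90.3 from 164 to 117 (-0.48, adjusted p = 0.00686), the mitochondrial HSP90.6 from 59.9 to 43.2 (-0.47, adjusted p = 0.0101) and HSP90.5 from 230 to 168 (-0.45, adjusted p = 0.0290). HSP90.2 and HSP90.3 are close paralogs between which the counting may have divided reads. The groups did not overlap in any of these 4 genes (19.8% of all loci were apart with bes1-D lower), and the first 3 passed in 16 of 16 alternative fits, HSP90.5 in 9. Of 12 HSP70 genes, 5 fell in bes1-D and 0 rose, among them the constitutive HSC70-1 (934 to 718 FPKM, -0.38, adjusted p = 0.0358) and the mitochondrial mtHSC70-1 (112 to 84.0 FPKM, -0.42, adjusted p = 0.0180). That count was 1 under both scalings between libraries and 0 to 6 over all alternatives.

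In the heat shock factor family HSFB2B, a repressor-type member, went from 7.40 to 4.83 FPKM in bes1-D (-0.54, adjusted p = 0.0360), the 1 that passed of 16 tested factors other than HSFA2, near the 5.77% of all loci called lower, and 0 passed under either scaling. Of 13 co-chaperones and partners, 2 fell: ROF1, a peptidyl-prolyl isomerase that binds HSP90 (82.5 to 61.9 FPKM, -0.41, adjusted p = 0.0355), and its relative ROF2 (2.97 to 0.893 FPKM, -1.06, adjusted p = 0.0411). ROF2, whose product is known to act with ROF1 and HSFA2, had r = 0.88 with HSFA2 within groups. Neither passed under the 2 scalings. Of 13 other small heat shock genes, 1 fell in bes1-D, AT5G51440, from 30.34, 35.74 and 40.44 FPKM in wild type to 11.69, 22.17 and 13.84 (-1.15, SE 0.20, adjusted p = 0.00923). It passed in 16 of 16 alternative fits.

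With RAV1 over-expressed the same 13 small heat shock genes gave 1 rise and 1 fall, in every alternative fit. These shares are no larger than those of all loci, 15% called higher and 8.01% lower. AT4G21870, an HSP20-like chaperone gene, was at 79.66, 107.43 and 100.48 FPKM in wild type and at 33.05, 46.37 and 26.20 with RAV1 over-expressed (-1.45, SE 0.24, adjusted p = 0.00336). AT5G47600 went the other way, from 7.19, 8.27 and 10.41 FPKM to 28.35, 15.65 and 34.50 (1.44, SE 0.29, adjusted p = 0.00809). Both were apart from wild type in all libraries, a state shared by 46.8% of all loci. Their bes1-D levels lay near those of wild type, at 95.0 and 9.35 FPKM on average. The median of the list was -0.07 against 0.09 over all loci.

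With RAV1 over-expressed, 15% of all loci were called higher and 8.01% lower, and the HSP70 and heat shock factor counts below are shares near or under these. Of the 9 other HSP90 and HSP100 genes, 3 rose, led by the chloroplast disaggregase CLPB3 (33.5 to 45.3 FPKM, 0.42, adjusted p = 0.00966) with CLPB4 and HSP90.7. Another 3 fell, the cytosolic HSP90.3 (164 to 125 FPKM, -0.39, adjusted p = 0.00702), HSP90.2 and HSP90.4. The split became 1 rise and 4 falls under both scalings, and 1 and 1 without RAV1 over-expression replicate 3. Of 12 HSP70 genes 1 fell, AT3G09440 (149 to 84.7 FPKM, -0.81, adjusted p = 0.00622), and 1 rose, AT1G16030, annotated as heat shock protein 70B (2.93 to 5.13 FPKM, 0.63, adjusted p = 0.0324). Under the scalings the rise was lost and 4 and 3 genes fell. HSFC1 fell (4.03 to 2.29 FPKM, -0.61, adjusted p = 0.00721) and HSFA3 rose (4.68 to 6.80 FPKM, 0.45, adjusted p = 0.0336; not under either scaling) among 16 heat shock factors. Of 13 co-chaperones 0 passed in limma, with 1 lower under each scaling.

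Genes of the unfolded protein response of the endoplasmic reticulum, a separate chaperone system, had 4 of 10 tested members higher with RAV1 over-expressed and 0 lower, with a median of 0.26, against 15% of all loci called higher and a median of 0.09. The transcription factor gene BZIP60 rose from 23.7 to 37.7 FPKM (0.65, SE 0.10, adjusted p = 0.00207) and BZIP28 from 13.1 to 19.1 (0.51, SE 0.08, adjusted p = 0.00251), each in 16 of 16 alternative fits. The folding enzyme PDIL1-1 and the co-chaperone ERDJ3A were the other called genes. The count was 3 under trimmed means and 2 to 5 over all alternatives. In bes1-D, 2 of the 10 fell and 0 rose, beside 5.77% of all loci called lower. The BiP gene BIP2 was at 114 and 90.33 FPKM in wild type and bes1-D (-0.33, adjusted p = 0.0350). The count of falls was 0 under trimmed means and 2 under quantile normalization.

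**Figure D4:**
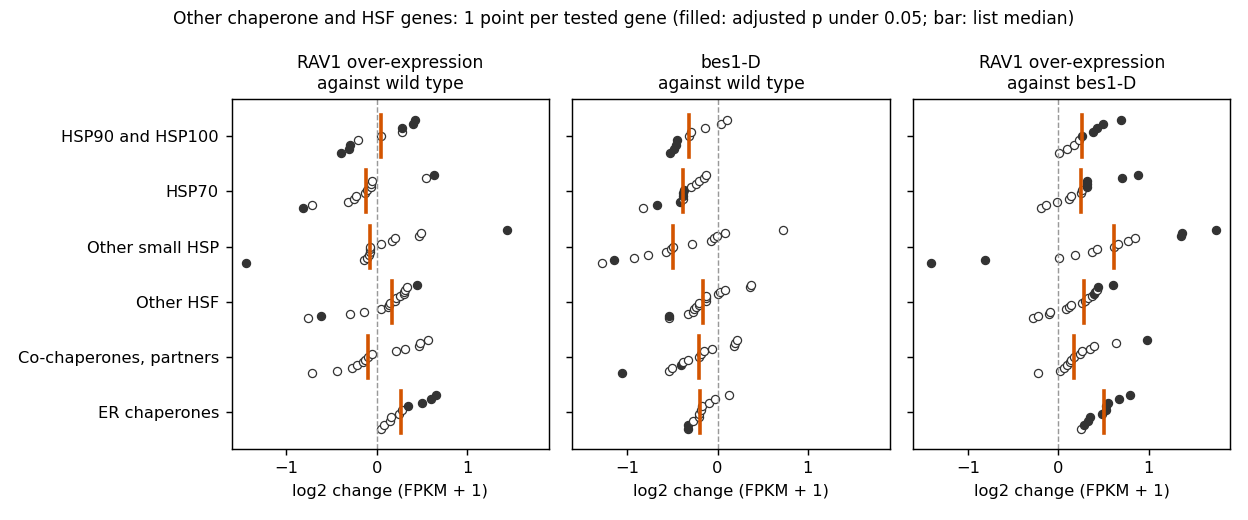
Log2 change of FPKM + 1 of each tested gene in 6 lists of other chaperone, heat shock factor and endoplasmic reticulum (ER) genes, by comparison; filled points have an adjusted p under 0.05 and the bar is the list median. Filled points in bes1-D against wild type all lie below 0, and in RAV1 over-expression against wild type they lie on both sides. The counts of all 6 lists change in some comparison under 1 or both scalings between libraries.

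The direction of many calls across all loci depended on that scaling. Of the loci called in RAV1 over-expression against wild type, 65.2% were higher as deposited, 47% after trimmed-mean scaling and 47.6% after quantile normalization. For bes1-D against wild type the shares higher were 27.5%, 45.4% and 41.8%, and for RAV1 over-expression against bes1-D 72.6%, 45.9% and 47.9%. The median over all loci of 0.09, -0.06 and 0.19 in these comparisons was 0.00, 0.00 and 0.03 after trimmed-mean scaling. HSP18.2 and HSFA2 passed against wild type under both scalings, and the HSP90.1 difference did not.

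Between RAV1 over-expression and bes1-D, 5 of the 13 other small heat shock genes passed, a share near the 38.5% of all loci that did. AT5G51440 (1.35, adjusted p = 0.000925), AT5G47600 (1.36, adjusted p = 0.00652) and HSP17.6A (1.74, adjusted p = 0.0177) were higher with RAV1 over-expressed, and AT4G21870 (-1.41, adjusted p = 0.00230) and AT1G52560 (-0.81, adjusted p = 0.0118) were lower. AT1G52560 was at 0.56, 0.58 and 0.31 FPKM with RAV1 over-expressed and at 1.21, 1.41 and 2.28 in bes1-D. It reached the level for testing only through its bes1-D libraries, the group where it is high, so its call carries little weight. HSP17.6A was at 11.11, 12.94 and 13.95 FPKM with RAV1 over-expressed and at 1.71, 8.26 and 1.68 in bes1-D. These groups were apart, a state shared by 51.3% of all loci. The median of this list was 0.61, against 0.19 over all loci. Of the 16 heat shock factors, 4 were higher and 0 lower, near the 28% of all loci called higher, including HSFA1B (10.05 and 7.21 FPKM, 0.44, adjusted p = 0.0147), one of the A1 factors that start the heat response. That count was 0 under both scalings, each of which called 1 factor lower. Of 12 HSP70 genes 5 were higher (1 and 2 under the scalings), and of 9 HSP90 and HSP100 genes 5 (2 and 3). Of 10 endoplasmic reticulum genes 9 were higher (6 and 6). The scalings also took the loci called higher from 5520 to 2551 and 2714. Of 13 co-chaperones and partners 1 was higher, a share below the 28% of all loci. It was the galactinol synthase gene GOLS1, a known target of heat shock factors (12.7 and 5.87 FPKM, 0.97, adjusted p = 0.00120).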

How the data were processed

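The authors deposited 1 table of FPKM values for 25199 loci in 9 libraries, 3 per group. Per the labels' protocols the libraries were made with a TruSeq RNA kit and read as 100-base pairs, and the submitters' processing notes name FastQC 0.10.1, TopHat2, Cufflinks 2.1.1 and the TAIR10 genome. The sources used here do not say whether libraries were scaled further or counted by strand. Counting of fragments cannot be recovered, so depth is unknown and no counting interval is given. The blank value (1) was left out, 327 loci were at 0 in every library, and 25135 matched RefSeq by identifier.

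On the log2(FPKM + 1) scale, limma 3.58.1 was run with its trend and robust options in R 4.3.3 on loci that reached 1 FPKM in 3 or more libraries. The 9 libraries were fitted together, leaving 6 residual degrees of freedom, and 3 two-sided contrasts were drawn. Calls needed an adjusted p under 0.05 (Benjamini-Hochberg, across every locus tested). The fit was tested on simulated data. There were 16 alternative fits: a pseudocount of 0.1, no filter, trimmed-mean scaling, quantile normalization, no trend and robust options, a replicate block, each library left out, and the 2 groups of a comparison alone.

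The genes described and the 13 lists with 123 other genes were chosen with earlier results of these data known. All 9 heat shock genes are named. Of each list, up to 4 called loci with the smallest p per comparison are named, and every called one where there were 5 or fewer, apart from those given as counts. The 10 loci most like the mean standardised profile were taken from tested loci with a group mean of at least 5 FPKM. Genes named only for their correlation with a member (HSFB2A, AT3G12580, MBF1C, ZAT12, TCH2, TCH3, TCH4, CRC, LUX and LHY) were chosen after their values were seen, and list genes were also run through the alternatives after the data were seen. Motifs were searched on both strands of the RefSeq TAIR10.1 genome, and no 100-base window of any of the 9 genes' transcripts had an exact match elsewhere in it. Figures were drawn with matplotlib 3.10.9 in Python 3.11.15.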

Additional observations from a re-analysis of the deposited data

How the results depend on the processing

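Of 335 values of the 7 tested genes in the alternative fits, 293 kept direction and side of the threshold, 14 lost a call, 14 gained one and 14 changed sign; the cause was not tested. All sign changes were in estimates that no fit called. For RAV1 over-expression against wild type, HSP101 turned to -0.071 and -0.078 under trimmed-mean scaling and quantile normalization, and ran from -0.19 to 0.28 with 1 library left out (below 0 without wild-type replicate 1 and RAV1 over-expression replicates 1 and 2). HSP23.6 ran from -0.35 to 0.27 (above 0 without wild-type replicate 3 and RAV1 over-expression replicate 3) and HSP17.6II from -0.76 to 0.49 (above 0 without the latter). For bes1-D against wild type, HSP23.6 ran from -0.47 to 0.44 (below 0 without wild-type replicate 1 and bes1-D replicate 2) and HSP17.4 from -0.42 to 0.098 (above 0 without wild-type replicate 3 and bes1-D replicate 3). Between RAV1 over-expression and bes1-D, HSP23.6 ran from -0.56 to 0.35 (above 0 without RAV1 over-expression replicate 3 and bes1-D replicate 2).

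Over all loci, RAV1 over-expression against wild type called 2960 loci higher and 1581 lower, with 1915 and 1944 higher under trimmed means and quantiles, and 1632 to 3393 higher and 985 to 1812 lower with 1 library left out. The bes1-D comparison called 433 higher and 1139 lower, with 735 lower under trimmed means, and 160 to 501 higher and 456 to 1216 lower with 1 library left out. RAV1 over-expression against bes1-D called 5520 higher and 2084 lower, with 2551 and 2714 higher under the scalings and 3534 to 5289 higher with 1 library left out.

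Replicate numbers did not pair the libraries: deviations of same-numbered libraries had r between -0.076 and 0.151 over loci. With a replicate block, HSFA2 in bes1-D had an adjusted p of 0.0542, HSP18.2 in RAV1 over-expression one of 0.00857 and the HSP90.1 difference one of 0.0420, while HSP18.2 passed in the direct comparison (0.0450). The block gave 2804 higher and 1550 lower, 360 and 927, and 5146 and 2062 loci in the 3 comparisons.

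With 3 libraries a group and unknown depth, HSFA2, HSP21 and HSP22 lie near the lower end of the measured levels, and the wide intervals leave room for changes that were not called.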
